A study of Vitis vinifera with 18 samples.

Results

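Transcript clusters that were lower in ripe berries from Sicily than in berries from both other sites, in both of 2 red grapevine varieties, numbered 115 of 97442 deposited clusters. A transcript cluster is a group of assembled transcript fragments that were counted together. The members were selected on their measured levels: at least 20 counts in all 17 libraries used, and in each variety a mean log2 level at Sicily at least 0.6 below both Molise and Campania. The smaller of the signed differences Molise minus Sicily and Campania minus Sicily, called the shortfall here, also had to exceed the distance between Molise and Campania. A shortfall of 0.6 on the log2 scale is a 1.52-fold difference. The cap of 200 members was not reached.

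The study (Vitis vinifera) sampled fully ripe fruit of Aglianico, which is native to the Italian south, and of Cabernet Sauvignon, which is planted worldwide, from open fields in Campania, Molise and Sicily. The 6 groups are thus Aglianico and Cabernet Sauvignon at each of the 3 sites, labelled with 3 biological replicates each, and all vines were trained as low bushes. Each replicate was a pool of 10 berries, extracted without seeds and sequenced after selection of polyadenylated RNA. The design text names the interaction of genotype and environment as the question. Vineyard, season and climate at each site come together with the site and cannot be told apart here.

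During ripening, grape berries of red varieties take up sugar, soften, lose acid and make anthocyanin pigments in the skin, while genes of the green, growing fruit are turned down. Temperature, light and water supply are known to shift the pace of this programme and the amount of pigment and aroma compounds. Because a ripe berry holds skin and flesh with different transcript pools, fewer cells of a type and less RNA per cell cannot be told apart in these bulk samples. The deposited clusters are numbered and not named, and 0 of 97442 identifiers matched the RefSeq gene table (assembly GCF_030704535.1). No function can therefore be given to a member, no gene list or marker of skin, flesh or seed could be looked up, and no sequence is shown.

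The 18 libraries held 22637307 to 31859647 expected counts, which are read counts estimated per cluster. The library labelled Aglianico Campania replicate 3 went against its label. Over the 13971 clusters that passed the count filter, its log2 levels had a mean r of 0.982 with Cabernet Sauvignon Campania, and of 0.908 with the rest of Aglianico Campania. The rule leaves it out, so Aglianico Campania has 2 libraries below and this one is described apart as the held-out library. At Sicily, 10 counts were reached by 45079 clusters in Cabernet Sauvignon replicate 2 and by 29212 in the library without a replicate number (the unnumbered library), against 19155 to 25443 in the other 16 libraries. These are the doubted Sicily libraries, and results are also given without them.

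In both varieties the members were lower at Sicily by similar amounts, about 2-fold at the median. The shortfall had a median of 0.99 in Aglianico and 0.98 in Cabernet Sauvignon on the log2 scale, beside -0.15 and -0.16 over all 13971 clusters that passed the filter. These values chose the members and are given as a description. In Aglianico the median member stood 1.21 higher at Molise and 1.12 higher at Campania than at Sicily. In Cabernet Sauvignon the same differences were 1.16 and 1.13. Over all clusters the medians of these differences were -0.0011 and 0.0019 in Aglianico and -0.0027 and 0.0167 in Cabernet Sauvignon. The shortfall takes the smaller of the signed differences, so its median over all clusters lies below 0 without a general rise at Sicily. The comparisons within a variety share their Sicily libraries.

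Of the 13971 clusters, 1104 had the required shortfall in Aglianico and 773 in Cabernet Sauvignon. The 143 clusters on both lists were 13.0% of the first and 18.5% of the second. The limit on the distance between Molise and Campania removed 28 of them and left the 115. Members closest to the threshold had 0.6021, 0.6034 and 0.604 as the smaller of their shortfalls, and the closest clusters outside it had 0.5995, 0.5982 and 0.5956. Of the members, 58 lay under 0.8 in at least 1 variety.

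**Figure D1:**
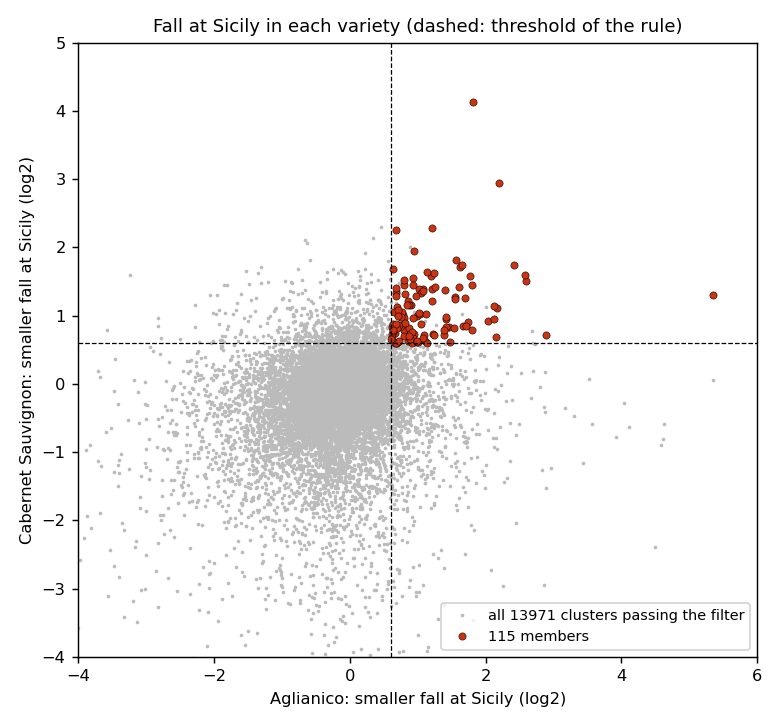
Shortfall at Sicily ("fall" on the axes) in Aglianico (x axis, log2) against that in Cabernet Sauvignon (y axis, log2), with the 115 members as filled circles, the other clusters passing the filter as grey points, and dashed lines at the threshold of 0.6. Most members lie within 2 of the origin on both axes, and 2 lie far out, 1 along each axis; 99 clusters that are not members fall outside the axes.

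A shortfall of 1 or more, a 2-fold difference, was found in 56 members in Aglianico, in 54 in Cabernet Sauvignon and in 32 in both. Only 1 member reached 2 in both varieties. The shortfall was the larger in Aglianico for 56 members and in Cabernet Sauvignon for 59, and it was within 0.5 of the other variety's value for 78. The sizes in the varieties were loosely related across the 115 members, with a Pearson r of 0.25 and a Spearman rho of 0.26. The members come from the same 17 libraries and were cut at the same threshold in both, so this r is a description.

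Cluster-27903.38431 ranked first when members were ordered by the smaller of their shortfalls, 2.20 in Aglianico and 2.94 in Cabernet Sauvignon (log2). Its normalized count, the expected count divided by a library size factor, was 904.01 and 248.09 at Aglianico Campania. At Aglianico Molise it was 203.86, 680.78 and 1171.42, and at Aglianico Sicily 347.54, 95.08 and 33.04. The Aglianico groups overlap, because Sicily replicate 1 lies above Molise replicate 1 and Campania replicate 2. In Cabernet Sauvignon it was 681.8, 322.93 and 744.81 at Campania, 363.4, 298.79 and 565.6 at Molise, and 36.09, 98.87 and 38.17 at Sicily. There the 3 Sicily libraries lie below the other 6 without overlap. This cluster also had the widest spread of all members within its groups, a pooled SD of 1.11 on the log2 scale.

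Cluster-27903.38860 came next and was steadier. Its normalized count at Aglianico Sicily was 353.7, 217.12 and 119.22, below 604.12 and 889.95 at Campania and 1390.14, 1269.65 and 2403.27 at Molise. In Cabernet Sauvignon it was 102.09, 71.12 and 34.59 at Sicily, against 1195.15, 1035.57 and 1083.15 at Campania and 1268.32, 999.43 and 1146.53 at Molise. The Sicily libraries lie apart from all others in each variety. The shortfall was 1.81 in Aglianico, a 3.5-fold difference, and 4.13 in Cabernet Sauvignon, a 17.5-fold difference. Its pooled SD within groups was 0.54. No other member had a shortfall that was larger in Cabernet Sauvignon by as much, 2.32.

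The opposite extreme was Cluster-27903.38163, singled out after its values were seen. Its normalized count at Aglianico Sicily was 210.23, 132.86 and 185.3, against 10849.08 and 4572.59 at Campania and 7583.58, 12157.06 and 15875.86 at Molise. The groups lie more than an order of magnitude apart, and the shortfall of 5.35 is a 40.7-fold difference. In Cabernet Sauvignon it was 2204.81, 1095.23 and 698.38 at Sicily, 2551.74, 5528.89 and 1785.07 at Campania and 1654.66, 5310.18 and 3429.65 at Molise. There Sicily replicate 2 lies above the lowest library of each other site, and the shortfall was 1.30, a 2.46-fold difference. In all, 8 members had a shortfall larger by over 1 in Aglianico and 5 in Cabernet Sauvignon. The difference between the varieties in the shortfall was not tested, since the rule used it in both.

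The most abundant member, Cluster-27903.31317, was also singled out after its values were seen. Its normalized count at Aglianico Molise was 23375, 24332 and 47990, at Campania 14736 and 14628, and at Sicily 9305, 3608 and 2926. In Aglianico the 3 sites lie in that order without overlap. In Cabernet Sauvignon the count was 7199, 13297 and 5209 at Campania, 4345, 11325 and 7847 at Molise and 5793, 3796 and 3047 at Sicily, so its groups overlap. The steadiest member, Cluster-27903.30233, was likewise singled out after its values were seen and had a pooled SD of 0.15 within groups. Its 6 Sicily libraries held 2337.06 to 3237.32 normalized counts, below 4510.9 in the lowest library of the other groups.

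**Figure D2:**
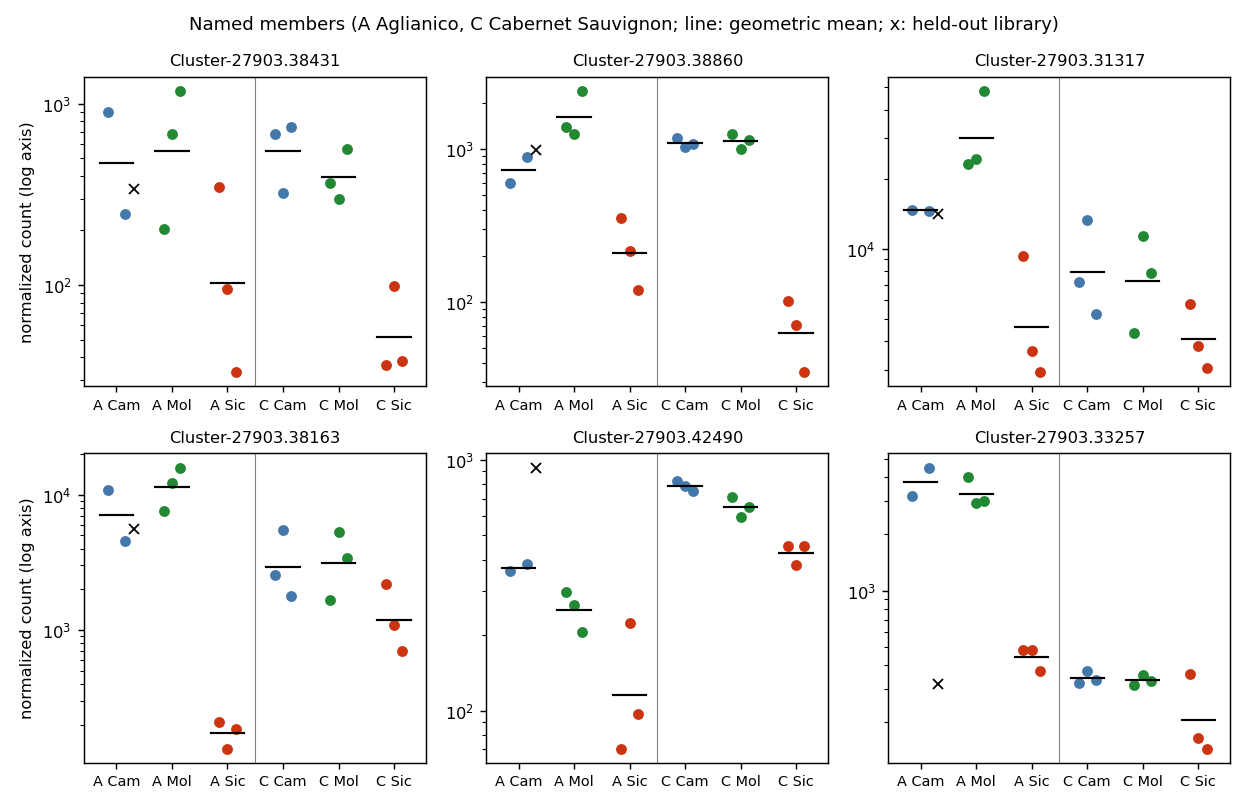
Normalized count (log axis) of 6 members named in the text, by variety (A, Aglianico; C, Cabernet Sauvignon) and site; points are libraries, lines geometric means, and the cross is the held-out library. The Sicily points are lowest in each variety for Cluster-27903.38860, whereas Cluster-27903.38163 is lowest at Sicily without overlap only in Aglianico.

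Most members separated Sicily from the other sites in every library of a variety. The 3 Aglianico Sicily libraries lay below all other Aglianico libraries for 88 of 115 members, against 12.4% of the 13971 clusters. The 3 Cabernet Sauvignon Sicily libraries lay below the rest for 89 members, against 9.36%. Both held for 69 members, against 1.73%. For 41 members all 6 Sicily libraries lay below all 11 others regardless of variety, against 0.716%. By edgeR's quasi-likelihood test, 38 members were called lower at Sicily in all 4 site comparisons at an adjusted p under 0.05, against 0.276% of 29738 tested clusters. One by one, the comparisons called 78 members lower at Sicily than at Molise in Aglianico (10.1% of tested clusters) and 51 lower than at Campania (7.03%). In Cabernet Sauvignon they called 85 lower than at Molise (7.41%) and 78 lower than at Campania (7.19%). The rule used these contrasts, so the counts describe the spread of the members and test nothing. The 38 became 12 without the doubted Sicily libraries, 22 without Aglianico Campania replicate 2, 23 without Aglianico Sicily replicate 3, 23 without Cabernet Sauvignon Campania replicate 2 and 8 with no filter on low counts. The calls over all clusters, 82, fell as well, to 28, 44, 50, 52 and 15 in the same order.

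Library by library, the median member stood 0.55, 0.71 and 0.90 below its mean over the 6 groups in Aglianico Sicily replicates 1, 2 and 3 (log2). In Cabernet Sauvignon Sicily it stood 0.65 below in replicate 2, 0.85 in replicate 3 and 1.17 in the unnumbered library. The 11 other libraries of the rule lay 0.13 to 0.77 above, and the median of all clusters lay between -0.0002 and 0.0033 in each library. The size factors were computed on these same clusters and set that median near 0. Among the members the median depth differed between Sicily libraries of the same group. The rule used these libraries to choose the members, so the depths and the shares that follow are a description. Aglianico Sicily replicate 3 was the lowest of its 3 for 69 members, or 60.0%, beside 34.5% of all clusters. The unnumbered library was the lowest of its 3 for 71 members, or 61.7%, beside 28.2% of all clusters. These libraries also had the smallest size factors of their groups, 0.70 and 0.84; whether that plays a part was not tested.

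**Figure D3:**
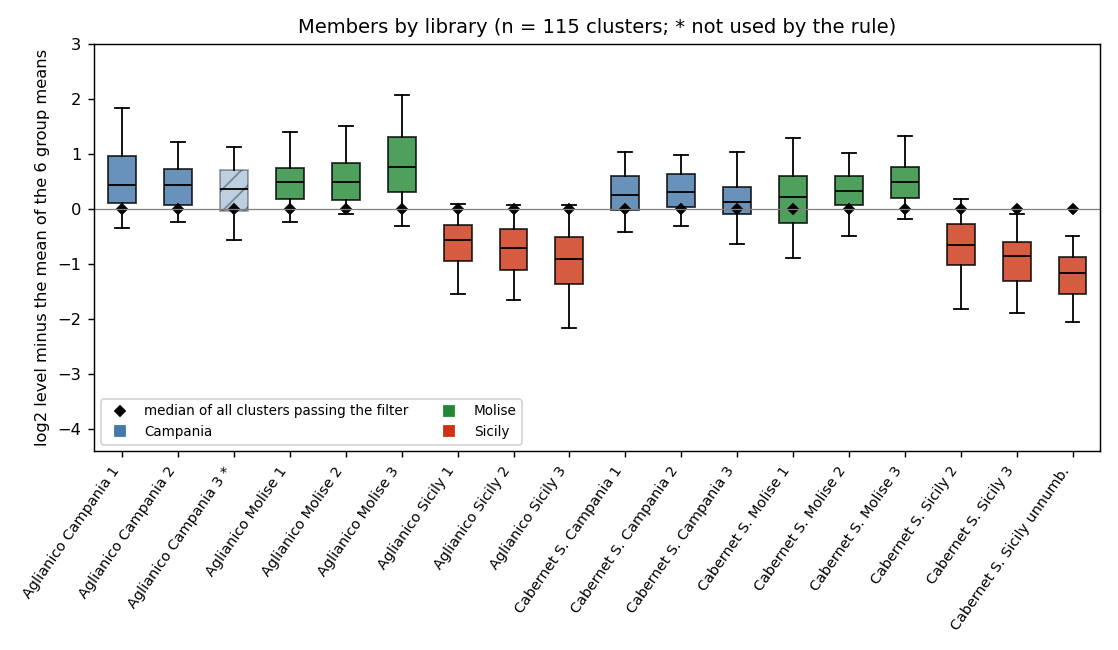
Log2 level of the 115 members in each library, relative to each member's mean over the 6 groups (boxes: quartiles and median; whiskers: 5th to 95th percentile; diamonds: median of all clusters passing the filter; hatched and marked *: the held-out library). Boxes of the 6 Sicily libraries lie below 0, with medians from -0.55 to -1.17, while the medians of all other libraries lie above 0. The rule chose the members on these levels, apart from the held-out library, and the size factors set the diamonds near 0.

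Together the members held 0.141% ± 0.035 of the counts of an Aglianico Sicily library (SD, n = 3), 0.574% ± 0.102 at Molise (n = 3) and 0.459% ± 0.001 at Campania (n = 2). In Cabernet Sauvignon they held 0.142% ± 0.029 at Sicily, 0.408% ± 0.030 at Molise and 0.364% ± 0.040 at Campania (SD, n = 3 each). The rule chose the members to be lower at Sicily, so the smaller share there is a description. These are shares of total counts, a scale on which the median of all clusters also lay lower at Sicily. At Sicily the varieties held nearly the same share. At the other sites Aglianico held the larger one, and its libraries did not overlap with those of Cabernet Sauvignon there. This rested in part on 3 members, Cluster-27903.31317, Cluster-27903.31719 and Cluster-27903.31283, which had the most counts and were set aside after their values were seen. Without them the share at Molise was 0.371% ± 0.046 in Aglianico and 0.314% ± 0.018 in Cabernet Sauvignon (SD, n = 3 each), and the libraries overlapped. At Campania it was 0.338% ± 0.005 (SD, n = 2) and 0.273% ± 0.019 (SD, n = 3), without overlap.

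The median shortfall in Cabernet Sauvignon was about as large without the doubted Sicily libraries. The rule also used the library that remains to choose the members, so this is a description and tests nothing. With Cabernet Sauvignon Sicily reduced to replicate 3, the median shortfall of the members in that variety was 1.00, and 93 of the 115 still passed the rule among 160 clusters that did. Membership of single clusters was less firm. When each of the 17 libraries was left out in turn, 88 to 114 members still passed, and 41 passed in every such run. Scaling to total counts in place of the size factors put the median of all clusters at Sicily 0.36 below the mean of the other sites in Aglianico and 0.39 below in Cabernet Sauvignon (log2). The members' median shortfall was 1.33 and 1.35 on that scale, which includes this shift of all clusters.

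The held-out library gives levels that the rule did not use. It lay above the mean of the 3 Cabernet Sauvignon Sicily libraries for 115 of 115 members, beside 50.2% of all clusters, by a median of 1.23 (log2). It lay above the mean of the Aglianico Sicily libraries for 105 members, beside 49.96% of all clusters, by a median of 1.08. It lay above every Aglianico Sicily library for 92 members (36.9% of all clusters), above every Cabernet Sauvignon Sicily library for 105 (33.9%) and above all 6 for 89 (19.3%). The Sicily levels it is set against were chosen to be low, so part of this gap is built in. The rule also asked Cabernet Sauvignon Campania, the group this library resembles, to lie above Sicily. These counts are therefore a description and no independent check of the members. Against Cabernet Sauvignon Campania, the group it resembles, the median member differed by 0.09, with a median absolute difference of 0.20, whereas against Aglianico Campania, its label, the median absolute difference was 0.47.

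**Figure D4:**
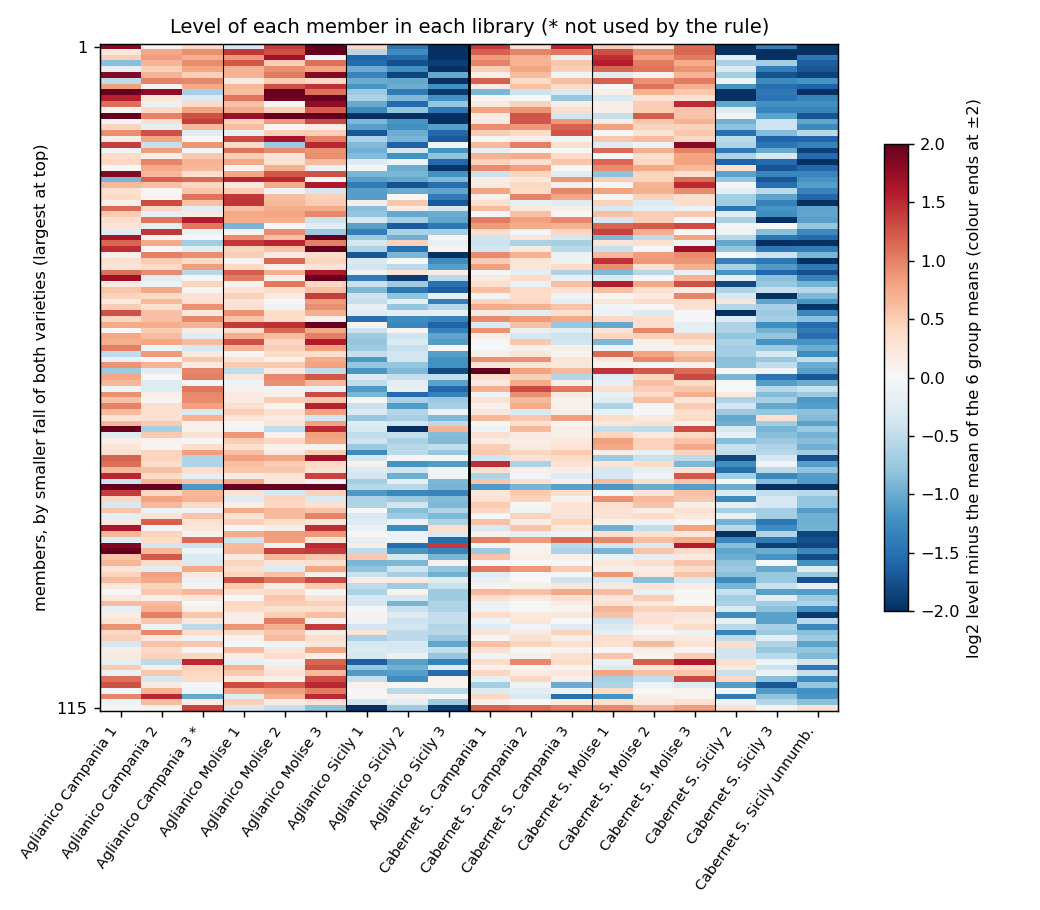
Log2 level of each member (rows, by the smaller of its shortfalls, largest at top) in each of the 18 libraries (columns), relative to its mean over the 6 groups; red is higher, blue lower, the colour ends at ±2, and * marks the held-out library. The 6 Sicily columns are mostly blue, and the held-out column is mostly pale red like the Cabernet Sauvignon Campania columns.

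Molise and Campania were close for most members. The 2 sites were within 0.5 of each other (log2) in both varieties for 70 members, or 60.9%, beside 54.5% of all clusters; the rule limits this distance. Molise was above Campania in both varieties for 44 members and below it in both for 24. Over all clusters those shares were 28.5% and 27.3%, against 38.3% and 20.9% of the members.

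Several properties of the members were not part of the rule. They were less abundant than the clusters they were drawn from, with a median level of 209 normalized counts beside 450 over all 13971. In 4 bins of equal size by level, from low to high, there were 47, 37, 17 and 14 members. Their replicates were more scattered, with a median pooled SD within groups of 0.39 on the log2 scale beside 0.25. This held within each bin of level, at 0.43 beside 0.35 in the lowest and 0.32 beside 0.19 in the highest. The part of level and scatter in the choice of members was not tested.

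Their counts were more often whole. A value that is not whole arises where the estimation divides reads between clusters, so the level of such a cluster is less certain. All 17 values were whole for 50 members, or 43.5%, beside 24.1% of all clusters, and 1 member had no whole value. The members were also less abundant, and whole values were not compared at equal level. Cluster-27903.38163, with the widest Aglianico shortfall, was not whole in 82.4% of libraries.

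The members also varied together to a small degree within groups. After each group's mean was removed, the median correlation between members was 0.12 over 6555 pairs, beside a value of about 0 over all pairs of clusters, and 17.5% of pairs exceeded 0.5 beside 9.41%. All pairs share the same libraries and 11 within-group degrees of freedom, so these are descriptions.

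The difference between the varieties, which the rule does not limit, leaned to lower levels in Cabernet Sauvignon. Averaged over the 3 sites, 35 members were called lower and 7 higher in Cabernet Sauvignon by edgeR's quasi-likelihood test at an adjusted p under 0.05. Over all 29738 tested clusters, 14.5% were called lower and 15.7% higher (30.1% in either direction). Among the 13971 clusters with enough counts in every library, 20.9% were lower and 15.4% higher (36.2% in either direction). The 42 called of 115 members are thus near the background share, while their direction was less even. The median log2 fold change was -0.26 over the members, -0.05 over those 13971 clusters and 0.04 over all tested. Being lower at Sicily and being lower in Cabernet Sauvignon were not tested for association.

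At single sites fewer members passed. At Molise 14 were lower and 3 higher in Cabernet Sauvignon, beside 7.93% and 6.76% of all tested clusters (14.7% in either direction). Among the clusters with enough counts in every library the shares were 10.9% and 7.24% (18.1% in either direction). At Campania 10 were lower and 4 higher, beside 6.57% and 6.96% of all tested clusters (13.5%) and 8.54% and 8.83% of those with enough counts (17.4%). At Sicily 18 were lower and 7 higher, beside 13.8% and 18.7% of all tested (32.5%) and 20.5% and 15% of those with enough counts (35.5%). The counts of members called lie close to these shares at every site, or below them at Sicily. The median log2 fold change of the members was -0.22 at Campania, -0.33 at Molise and -0.28 at Sicily. Over the clusters with enough counts it was -0.0049, -0.07 and -0.11, and over all tested clusters -0.0043, -0.01 and 0.04, so part of the lean at Sicily is shared by clusters with enough counts. Called or not, 54 members (47%) were lower and 16 (13.9%) higher in Cabernet Sauvignon at all 3 sites, beside 22.9% and 15.6% of the clusters with enough counts and 18.3% and 19.5% of all tested. The rule asks for a shortfall in both varieties and limits the distance between Molise and Campania in each. That restricts how the variety difference can change between sites, so part of this agreement across sites may be built in.

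The counts at single sites depended on which libraries entered, for the members and for all clusters. Without the doubted Sicily libraries, 5 members were lower and 5 higher at Sicily, with 10.4% of all tested clusters called. On average 27 were then lower and 8 higher, with 24.1% of all clusters called. At Campania, 4 members passed without Aglianico Campania replicate 1 (7.5% of all clusters), while leaving out replicate 1, 2 or 3 of Cabernet Sauvignon Campania left 7, 9 or 7 (8.95%, 9.55% or 10.2%). At Molise, 8 passed without Aglianico Molise replicate 3 (8.96%) and 8 without Cabernet Sauvignon Molise replicate 1 (7.37%). With the held-out library entered under its label, edgeR called 0 members and 0 of all 29738 clusters at Campania (12 members and 3934 clusters at an unadjusted p under 0.05; no other tool was run on that set), and 37 members on average (24.7% of all clusters). With no filter on low counts it called 25 members on average, beside 5.6% of the 97300 clusters then tested.

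At all 3 sites 5 members were called, beside 3.41% of all tested clusters, which is near the members' share of 4.35%. Of the 42 called on average, 41 had the same sign at each site (97.6%), beside 76% of all clusters called on average and 73.9% of those with enough counts. Part of this agreement across sites may likewise be built in by the rule. Under every alternative 23 members were called (20 lower, 3 higher), or 20%, beside 14.7% of all tested clusters and 20% of those with enough counts.

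Cluster-27903.33257 had the largest difference between the varieties. Its normalized count was 3163.09 and 4505.41 at Aglianico Campania, 4000.27, 2937.31 and 3000.93 at Aglianico Molise and 483.65, 484.54 and 373.47 at Aglianico Sicily. In Cabernet Sauvignon it was 322.63, 374.16 and 335.96 at Campania, 316.48, 357.41 and 331.61 at Molise and 358.86, 164.79 and 144.34 at Sicily. On this scale the highest Cabernet Sauvignon library, Campania replicate 2, is level with the lowest Aglianico library, Sicily replicate 3; on the CPM scale of the test (CPM is a share of the library total, here after TMM scaling) the varieties did not overlap. The mean was 95.5 ± 67.2 CPM in Aglianico (SD, n = 8) and 11.8 ± 3.33 CPM in Cabernet Sauvignon (SD, n = 9). Here and for the named clusters below, the SD in CPM spans all 3 sites. The log2 fold change averaged over sites was -2.65 ± 0.16 (SE, edgeR adjusted p = 1.09e-07). At single sites the log2 fold change was -3.46 at Campania, -3.36 at Molise and -1.13 at Sicily, so the average covers unlike differences. Cabernet Sauvignon Sicily replicate 2 was level with the other sites, so the shortfall of this member in that variety rests on the other two libraries. The held-out library, at 320.72, sat with the Cabernet Sauvignon values.

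Cluster-27903.35758 was lower in Cabernet Sauvignon at every site. Its normalized count was 449.86 to 825.26 in the Aglianico libraries from Campania and Molise and 251.6, 325.63 and 295.3 at Aglianico Sicily. In Cabernet Sauvignon it was 146.66 to 266.28 at the first 2 sites and 120.88, 90.2 and 79.92 at Sicily. On this scale Cabernet Sauvignon Campania replicate 1 exceeds Aglianico Sicily replicate 1, and on the CPM scale the varieties did not overlap. The mean was 19.7 ± 8.04 CPM in Aglianico (SD, n = 8) and 6.73 ± 2.69 CPM in Cabernet Sauvignon (SD, n = 9). The log2 fold change averaged over sites was -1.59 ± 0.15 (SE, edgeR adjusted p = 4.64e-06).

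Cluster-27903.42490 was higher in Cabernet Sauvignon and is also the member nearest the threshold. Its normalized count was 360.74 and 383.69 at Aglianico Campania, 296.35, 264.08 and 206.59 at Molise and 70.48, 222.73 and 96.83 at Sicily. In Cabernet Sauvignon it was 827.96, 790.35 and 750.36 at Campania, 710.1, 590.96 and 651.12 at Molise and 452.68, 380.75 and 453.29 at Sicily. The varieties touch on this scale, at Aglianico Campania replicate 2 and Cabernet Sauvignon Sicily replicate 3, and did not overlap in CPM. The mean was 9.57 ± 4.36 CPM in Aglianico (SD, n = 8) and 24.4 ± 6.48 CPM in Cabernet Sauvignon (SD, n = 9). The log2 fold change averaged over sites was 1.34 ± 0.18 (SE, edgeR adjusted p = 7.64e-05). The held-out library, at 932.93, again sat with Cabernet Sauvignon and not with its label. This cluster was the only member higher in Cabernet Sauvignon that met the rule for naming. The calls of these 3 clusters held under every alternative tried, with adjusted p up to 0.000428, 0.000311 and 0.00217 in the order given.

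**Figure D5:**
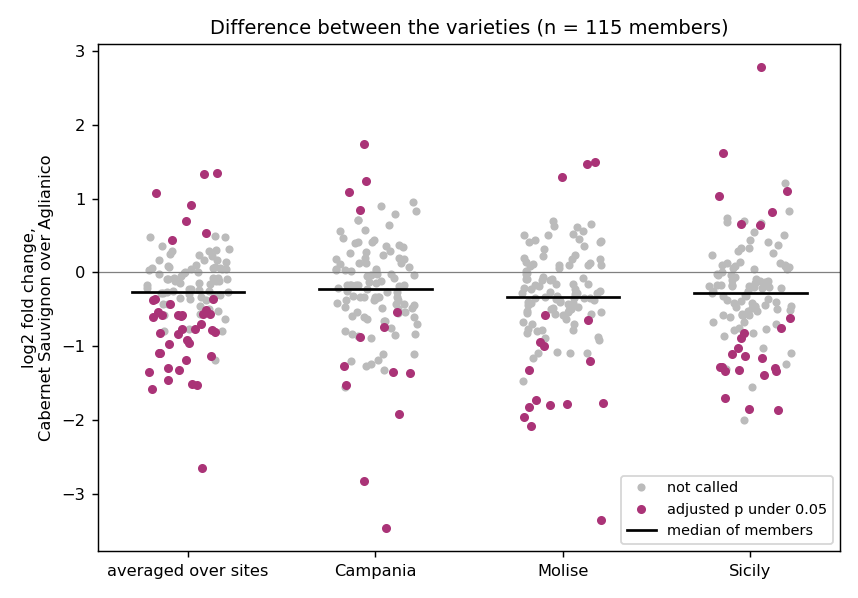
Log2 fold change of Cabernet Sauvignon over Aglianico for the 115 members (points), averaged over sites and at each site, with coloured points called at an edgeR adjusted p under 0.05 and lines at the medians. More coloured points lie below 0 than above it in each column, 35 against 7 for the average.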

How the data were processed

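Expected counts for 97442 transcript clusters in 18 libraries, not scaled to a common depth, were deposited by the authors. Per the submitters' processing notes, CASAVA 1.8, RSEM and DESeq2 were used, with no role given. An aligner, assembler or build is not given in the sources used here. All columns were mapped from the labels; the column of 1 Cabernet Sauvignon Sicily library has no number in its name and was assigned to the group alone.

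For the rule, expected counts of clusters with 20 or more in all 17 libraries were divided by median-of-ratios size factors and averaged as log2 per group, with no pseudocount. The held-out library was scaled to the geometric means of the 17. For tests, expected counts were rounded, kept by filterByExpr (29738 clusters, all 115 members) and fitted with edgeR 4.0.16 (TMM factors, robust glmQLFit, glmQLFTest, R 4.3.3) as 6 group means over the 17 libraries, with Benjamini-Hochberg adjustment over all clusters tested. Each SE is the size of the log2 fold change over the root of the F statistic. The overlap of libraries for naming was judged on TMM-scaled CPM, computed here. The rule was run on simulated data beforehand, and the edgeR test was run on simulated data after the main fit. Neither run is used as support here. Named clusters were, for the shortfall, the 2 members ranked highest by the smaller of their shortfalls in the varieties, and, for the variety difference, up to 2 called members per direction with at least 5 CPM and no overlap; others are marked as chosen after their values were seen. The members and choices were made with earlier results of these data known. Alternatives were other scalings, DESeq2 1.42.0, limma-voom (limma 3.58.1), other count filters, the held-out library included, libraries left out and a replicate block.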

Additional observations from a re-analysis of the deposited data

How the results depend on the processing

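Of 194 alternative values of 8 results, 172 stayed within the limits set, 22 moved and 0 reversed. A count of calls could only be marked as kept or moved, so the 0 says nothing about those results. The median shortfall moved by less than the spread between replicates under each alternative. That spread is the median within-group SD of single members, 0.39, which is a lenient limit for a median over 115 members. Scaling to total counts raised the median shortfall in both varieties, as given above. With 1 library left out it ranged from 0.926 to 1.04 in Aglianico and from 0.838 to 1.12 in Cabernet Sauvignon. The number of clusters passing the rule, 115, was 198 with upper-quartile factors and 625 with total counts (the 115 among them in both cases), 74 with a minimum of 50 counts and 32 with a shortfall of 1; stricter limits pass fewer by construction. With 1 library left out the number passing ranged from 104 to 168. For the variety difference, calls with 1 library left out ranged from 37 to 46 (averaged), 4 to 16 (Campania), 8 to 22 (Molise) and 18 to 28 (Sicily), and calls lower at Sicily in all 4 comparisons from 22 to 41; 1 library left in a group was assumed to vary like the other groups. With no filter on low counts the calls were 25 averaged, 4 at Campania, 7 at Molise and 8 in all 4 site comparisons. DESeq2 gave 27 at Molise. Without both doubted libraries there were 10 at Sicily and 12 in all 4. With the held-out library under its label, edgeR called 0 members at Campania, and 0 of all 29738 clusters; at an unadjusted p under 0.05 it gave 12 members and 3934 clusters, and no other tool was run on that set. The cause was not tested.

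The replicate block, with the unnumbered library left out, gave 40 averaged, 12 at Campania, 17 at Molise, 21 at Sicily and 22 in all 4 site comparisons. Deviations of same-numbered libraries of both varieties correlated at -0.18 to 0.38, so the numbers were not taken to pair the samples.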
